A study of Homo sapiens with 4 samples.

Results

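The markers described here are 10 genes that are used to recognise or to sustain breast cancer stem cells: the surface proteins CD44, CD24, EPCAM, PROCR and PROM1, and the nuclear regulators KLF4, MYC, BMI1, POU5F1 and SOX2. They were chosen by symbol, and all 10 were found among the 25343 genes of the deposited table. RNA came from SUM149PT cells, a line established from an inflammatory breast cancer, after stable infection with a lentivirus. The 2 EMP2 knockdown libraries carried a short hairpin RNA (shRNA) against EMP2, and the 2 vector control libraries carried a control construct. All 4 libraries came from stably infected cells grown in the same medium, with serum, antibiotics, insulin and hydrocortisone; the knockdown rests on a hairpin named Sh911 in the labels. The labels do not say whether a line was a single clone, nor that libraries of a group came from separate cultures. Every p-value therefore measures the spread between these libraries, which may be technical. In the fits this spread is partly shared over genes, so it is not the spread of a gene's own libraries alone. EMP2 encodes epithelial membrane protein 2, which crosses the membrane several times, and the series title names it as a target for breast cancer stem cells.

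Breast cancer stem cells are a fraction of tumour cells that can start a new tumour and give rise to the other cells in it. They are commonly sorted as CD44-high and CD24-low cells, often with EPCAM to mark epithelium, while PROCR and PROM1 (CD133) mark stem-like cells of the mammary gland and of several carcinomas. KLF4, MYC, POU5F1 (OCT4) and SOX2 are the transcription factors that together reprogram differentiated cells to pluripotency. BMI1 is a ring finger protein of Polycomb repressive complex 1, which compacts chromatin and supports self-renewal. Sorting reads protein on single cells. These data read mRNA of a whole culture, in which fewer cells of a type and less RNA per cell cannot be told apart.

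The libraries held between 13360907 and 14647053 reads, recovered as whole numbers from the deposited CPM, read counts divided by a library size that the trimmed mean of M values (TMM) adjusts. EMP2 mRNA stood at 23.0 and 22.6 CPM in knockdown libraries and at 126.1 and 124.6 CPM in control libraries, a log2 change of -2.43 (SE 0.051, limma adjusted p = 3.7e-15). All 9 breast epithelial markers listed were detected: KRT5, KRT14, KRT17, KRT6A, KRT8, KRT18, EGFR, CDH1 and CDH3. Their summed level was 5070 to 5129 CPM in knockdown and 4389 to 4456 CPM in control libraries. KRT8, KRT18 and CDH1 are not particular to basal-like cells, so the sum does not measure basal-like character. KRT5 was not called (limma adjusted p = 0.125). KRT14 and EGFR of this list went the other way, with log2 changes of -1.07 and -0.63, both called lower. Of the receptors used to class breast tumours, PGR had at most 1 read in a library and ERBB2 averaged 81.5 CPM in knockdown and 79.7 CPM in control libraries. ESR1, the oestrogen receptor, stood at 5.17 and 5.47 CPM in knockdown libraries, against 1.94 and 1.36 CPM in control libraries (log2 change 1.45, limma adjusted p = 3.41e-05). Of the defining markers of other cells, CD3E, MS4A1 and COL1A2 were at 0 in every library, and 5 of 8 leukocyte, 5 of 7 fibroblast and 4 of 5 endothelial markers were under 1 CPM in 3 or more libraries. The summed leukocyte markers ran from 67.3 to 70.2 CPM in knockdown and from 88.6 to 93.2 CPM in control libraries, mostly CD68, and the fibroblast markers from 87.5 to 88.2 CPM in knockdown and from 114.8 to 115.1 CPM in control libraries, mostly DCN and COL1A1. The endothelial sum ran from 2.47 to 2.65 CPM in knockdown and from 2.50 to 2.97 CPM in control libraries. The part of these markers in the results was not tested.

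Knockdown cells carried more CD24 mRNA and less CD44 and MYC mRNA, while EPCAM, PROCR, KLF4 and POU5F1 did not pass the test. Of the 10 markers 8 reached 1 CPM in at least 2 libraries and were tested, and PROM1 and SOX2 were low, under 1 CPM in every library. Of the 8 tested, 1 was called higher and 3 lower at an adjusted p under 0.05 (limma on log2(CPM + 0.5), Benjamini-Hochberg adjustment over 13661 genes). That is 50% of them, beside 33.4% of all genes tested, of which 16.6% were higher and 16.8% lower. edgeR on the recovered reads also called 1 higher and 3 lower, beside 15.6% higher and 17.4% lower (33.0% either way) of all genes. DESeq2 called 1 higher and 2 lower, beside 7.72% and 9.18% (16.9% either way) of the 12866 genes to which it gave an adjusted p. Limma without the abundance trend called 1 higher and 1 lower, beside 6.71% and 7.44% (14.1% either way) of all genes. With 8 genes, these counts are a description. Their median log2 change was -0.086, against 0.0037 over all genes. The libraries of the groups did not overlap for 7 of the 8, with the knockdown above for 4 and below for 3. Over all genes tested this held for 65.6%, of which 33.4% lay above and 32.3% below, as shares of all. The third lower call, BMI1, belonged to a row that shares part of its sequence with a second row. The call did not hold for the sum of these rows, as described with that gene. Log2 changes are knockdown minus control of log2(CPM + 0.5), so the change of a gene with few reads is understated.

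**Figure D1:**
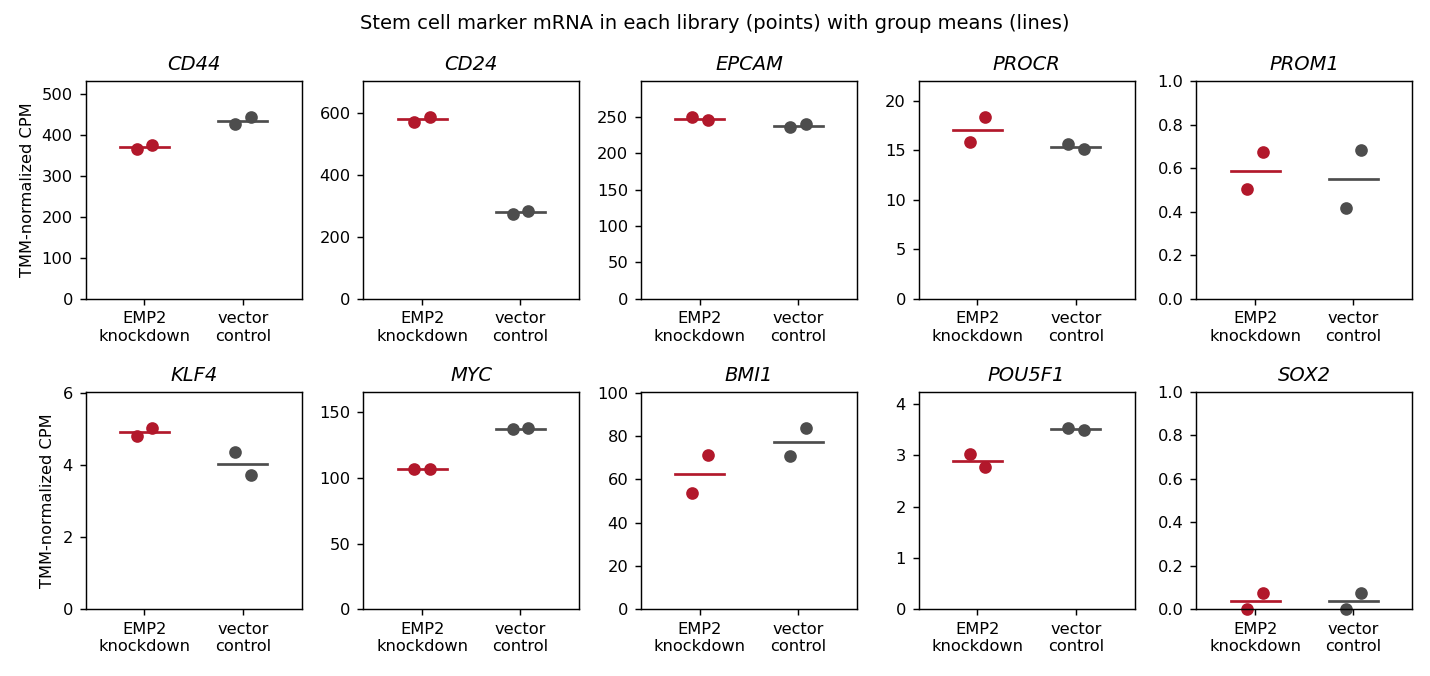
TMM-normalized CPM (vertical axes, from 0, a scale of its own for each gene) of the 10 markers in the 2 EMP2 knockdown libraries (left) and the 2 vector control libraries (right); points are libraries and lines are group means. CD24 was at 571.3 and 585.0 CPM in knockdown and at 273.6 and 282.6 CPM in control libraries, and the points of BMI1 overlap between the groups.

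CD24 is a small, heavily glycosylated protein held in the membrane by a lipid anchor. Its gene lies on the minus strand at chr6:106969831-106975627 (GRCh38). It stood at 571.3 and 585.0 CPM in knockdown libraries, against 273.6 and 282.6 CPM in control libraries. Both knockdown libraries lay above both controls, by far more than the gap between libraries of a group. The means were 578.2 ± 9.67 CPM in knockdown and 278.1 ± 6.34 CPM in control libraries (SD, n = 2 each), a ratio of 2.08. On the log2 scale the difference was 1.05, with an SE of 0.028 and a 95% interval of 1.00 to 1.11 (limma adjusted p = 6.06e-14). Of all tested genes 0.871% were called higher with a log2 change of at least 1, and 1.57% had a larger absolute log2 change. CD24 ranked 111 from the top among 13661 genes. Its call held in every alternative run, with adjusted p from 5.9e-161 (DESeq2) to 0.0116 (limma without the abundance trend). Processed pseudogenes of CD24 exist in the genome, but 5.26% of the 50-base stretches in its annotated transcripts also occur in transcripts of another gene. The rest are found in no other annotated transcript, on either strand.

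CD44 is the cell surface receptor for the matrix sugar hyaluronan, and lies on the plus strand at chr11:35138870-35232402 (GRCh38). It stood at 365.2 and 376.8 CPM in knockdown libraries, against 427.4 and 443.7 CPM in control libraries. Both knockdown libraries were below both controls. The means were 371.0 ± 8.21 CPM in knockdown and 435.5 ± 11.6 CPM in control libraries (SD, n = 2 each), so the knockdown level was 85.2% of control. The fitted log2 difference of -0.23 had an SE of 0.029 and a 95% interval of -0.29 to -0.17 (limma adjusted p = 8.63e-06). It was small beside the spread over genes, since 31.0% of the tested genes had a larger absolute change. The call ended with limma without the abundance trend (adjusted p = 0.0594) and held in the other alternatives, with DESeq2 at an adjusted p = 7.84e-08. CD44 is spliced into 39 annotated transcripts, and one value per gene says nothing of which of them changed.

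The ratio of CD44 to CD24, which sorting schemes read on protein, was lower in the knockdown. It was 0.639 and 0.644 in knockdown libraries, against 1.56 and 1.57 in control libraries. The values within a group were nearly the same, and those of the groups lay far apart. The knockdown mean of 0.642 ± 0.0035 was 41.0% of the control mean of 1.57 ± 0.0058 (SD, n = 2 each). The ratio is taken within a library, so it does not depend on library scaling; being a ratio of CPM, it can be compared between libraries but not read as molecules of CD44 per molecule of CD24. It is given without a test, because an exact permutation test of 2 against 2 cannot go below p = 0.333. CD24 supplied most of the shift: its log2 change was 1.05, and that of CD44 was -0.23.

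**Figure D2:**
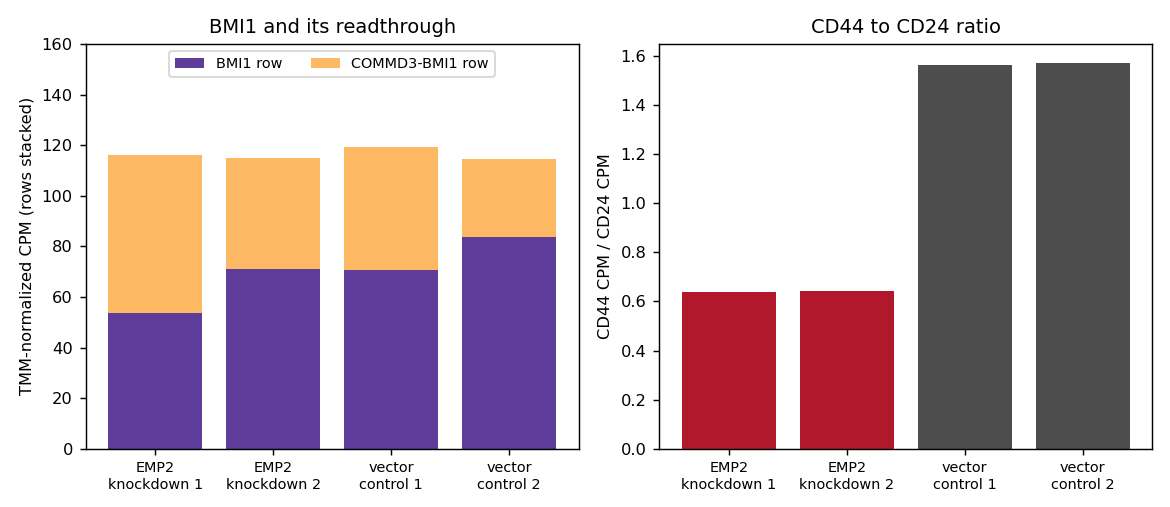
Left, CPM of the BMI1 row and of the COMMD3-BMI1 readthrough row, stacked, in each library; right, CD44 CPM divided by CD24 CPM in each library (both axes from 0). The stacked height stays between 114.7 and 119.3 CPM while its division moves, and the ratio is 0.639 and 0.644 in the EMP2 knockdown and 1.56 and 1.57 in the vector control.

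The stretches just before the RefSeq starts of this pair, the markers that moved in opposite directions, are shown as read on each gene's own strand, with a motif match in capitals. Both are 250 bases from the RefSeq promoter table of GRCh38.p14, for CD24 upstream of the outermost of 3 starts, at chr6:106975628-106975877 on the minus strand, and for CD44 upstream of its 1 start, at chr11:35138921-35139170 on the plus strand. The CD44 stretch lies inside the gene as GENCODE draws it, after that annotation's first start at base 35138870.
CD24 promoter: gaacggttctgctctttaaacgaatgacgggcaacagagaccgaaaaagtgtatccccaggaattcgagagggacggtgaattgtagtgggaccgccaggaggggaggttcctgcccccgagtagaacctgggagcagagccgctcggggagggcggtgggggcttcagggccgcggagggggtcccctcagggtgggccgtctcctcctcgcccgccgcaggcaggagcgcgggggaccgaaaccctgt
CD44 promoter: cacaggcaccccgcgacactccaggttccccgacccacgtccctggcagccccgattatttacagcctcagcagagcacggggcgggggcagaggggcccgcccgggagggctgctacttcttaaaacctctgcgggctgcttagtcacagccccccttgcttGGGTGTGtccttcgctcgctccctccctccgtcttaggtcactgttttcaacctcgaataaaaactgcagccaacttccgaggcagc
GC content was 65.6% for CD24 and 62.4% for CD44. Motifs linked to the nuclear markers themselves were searched on both strands of windows of 250 bases before to 50 after a start: the MYC E-box CACGTG, the KLF element GGGTGTG and the octamer ATGCAAAT bound by POU family factors. Of the 10 markers 7 had a start in the table, with 13 windows in all; EPCAM, MYC and POU5F1 had none. GGGTGTG was found in CD44, 87 bases before its start, and in 7.56% of all 35116 windows. CACGTG was found in KLF4 and in BMI1, and in 7.26% of all windows. The octamer was found in 0 of the 13 windows and in 1.77% of all windows. A match is a stretch of letters, and these data do not show binding.

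EPCAM, the epithelial cell adhesion molecule, lies at chr2:47345158-47387601. It stood at 249.8 and 246.1 CPM in knockdown libraries, against 236.2 and 240.1 CPM in control libraries. The groups did not overlap, but lay close together. The log2 change was 0.058 (SE 0.030, limma adjusted p = 0.151), with a 95% confidence interval from -0.0051 to 0.12. A change of CD24's size therefore lay far outside the interval.

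PROCR, the endothelial protein C receptor, lies at chr20:35172073-35216240. It stood at 15.9 and 18.4 CPM in knockdown libraries, against 15.6 and 15.1 CPM in control libraries. The knockdown libraries differed from each other by more than the lower of them differed from the controls. The log2 change was 0.14 (95% confidence interval -0.063 to 0.35, limma adjusted p = 0.285). It was 0.25 without knockdown replicate 1 and 0.042 without knockdown replicate 2, with no call either way. Of its 50-base stretches 11.6% occur in another gene's transcripts, most of them in an antisense gene on the opposite strand. Since the strand setting of the counting was not given in the sources used here, reads from the antisense gene cannot be told apart.

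PROM1, a pentaspan membrane protein known as CD133, was low. It had 7 and 9 reads in knockdown libraries, against 6 and 9 reads in control libraries, or 0.502 and 0.674 CPM against 0.415 and 0.682 CPM. The groups overlapped. At this depth, where 3 reads come to between 0.208 and 0.227 CPM, a change of moderate size was not detectable.

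Other surface proteins reported on breast stem or progenitor cells moved both ways. Of 20 listed, 14 were tested, 4 rose and 2 fell, with a median log2 change of 0.0075. The share called was 42.9%, beside 33.4% of all genes, and limma without the trend called 3 higher and 1 lower. For this and the later lists, limma without the trend called 6.71% of all genes higher and 7.44% lower. DESeq2 called 7.72% of its 12866 genes higher and 9.18% lower. L1CAM, a neural adhesion molecule, stood at 711.2 and 729.3 CPM in knockdown libraries, against 479.9 and 484.0 CPM in control libraries (log2 change 0.58). The laminin receptor chain ITGA6, known as CD49f, fell to 83.2 and 85.0 CPM in knockdown libraries, against 141.2 and 147.2 CPM in control libraries (log2 change -0.77). The efflux transporter ABCG2 had a log2 change of 2.55. The integrin chains ITGB1 and ITGA2 also rose, with log2 changes of 0.25 and 0.37. The limma adjusted p was 1.92e-11 for L1CAM, 2.14e-10 for ITGA6 and 3.24e-10 for ABCG2, and the groups did not overlap for any of these genes.

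In a list around CD44 and its ligand hyaluronan, 6 of 14 tested genes rose and 1 fell, beside 16.6% and 16.8% of all genes. The median log2 change was 0.13. The list holds genes that make, degrade or bind hyaluronan. DESeq2 called 3 higher and limma without the trend 2, each with 1 lower. The list also holds the splicing regulators ESRP1 and ESRP2 and the proteins that link CD44 to actin. Of these, ESRP1 (log2 change 0.12) and the actin linker RDX (0.16) were among the 6 that rose. The cell surface hyaluronidase TMEM2 stood at 40.5 and 41.9 CPM in knockdown libraries, against 20.6 and 21.2 CPM in control libraries (log2 change 0.96, limma adjusted p = 1.27e-08). The matrix proteoglycan VCAN, which binds hyaluronan, had a log2 change of 0.54. The member that fell was TNFAIP6, a secreted hyaluronan-binding protein, at 2.65 and 3.07 CPM in knockdown libraries, against 11.6 and 10.3 CPM in control libraries (log2 change -1.77, limma adjusted p = 1.51e-07).

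Around EPCAM, whose cleavage releases a fragment that acts with FHL2 and beta-catenin in the nucleus, 6 of 15 tested genes rose and 2 fell, beside 16.6% and 16.8% of all genes, with a median log2 change of 0.12. Limma without the trend called 3 higher and 0 lower. FHL2 stood at 28.0 and 26.4 CPM in knockdown libraries, against 12.4 and 12.9 CPM in control libraries (log2 change 1.08, limma adjusted p = 5.95e-08). CLDN7, the claudin that binds EPCAM, had a log2 change of 0.41, and CTNNB1, which encodes beta-catenin, of 0.23. ADAM17, a protease that cleaves EPCAM, did not pass the test. Among the 2 that fell was the gamma-secretase subunit APH1A, with a log2 change of -0.18.

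PROCR presents protein C for activation. In a list around PROCR and protein C, 4 of 10 tested genes rose and 0 fell, beside 16.6% and 16.8% of all genes. The median log2 change was 0.30. The list also holds F3, TFPI2 and the receptor kinases TYRO3 and AXL, and these were the 4 that rose. The 6 others tested, THBD, PROS1, F2R, F2RL1, SERPINA5 and GAS6, did not pass the test. The counts are therefore not a result for protein C activation. DESeq2 called 2 higher. By unadjusted p under 0.05, limma also placed 0 lower, and edgeR and DESeq2 called 0 lower. F3, tissue factor, the cellular trigger of coagulation, stood at 200.8 and 157.4 CPM in knockdown libraries, against 82.4 and 94.1 CPM in control libraries (log2 change 1.01, limma adjusted p = 4.21e-08). The protease inhibitor TFPI2 had a log2 change of 0.59 and the receptor kinases TYRO3 and AXL of 0.27 and 0.18. Protein C itself (PROC) had a mean of 0.145 CPM in knockdown and 0.107 CPM in control libraries and was not tested.

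Of the nuclear markers, MYC was the clearest. MYC is a transcription factor that drives growth and ribosome production, and lies at chr8:127735434-127741434. It stood at 106.8 and 106.5 CPM in knockdown libraries, against 137.0 and 137.8 CPM in control libraries. The libraries within each group were nearly equal, and the groups did not overlap. Knockdown libraries averaged 106.7 ± 0.216 CPM and control libraries 137.4 ± 0.560 CPM (SD, n = 2 each), and the knockdown level was 77.6% of control. This is a log2 change of -0.36, with an SE of 0.037 and a 95% interval of -0.44 to -0.29 (limma adjusted p = 8.41e-07). The call held in every alternative run, at an adjusted p of at most 0.024 (limma without the abundance trend). None of its 50-base stretches occurs in another annotated gene.

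Partners, antagonists and degraders of MYC moved both ways: of 15 tested, 4 rose and 3 fell, beside 16.6% and 16.8% of all genes, with a median log2 change of 0.019. DESeq2 called 1 higher and 2 lower, and limma without the trend 2 and 2. MAX, the obligate partner of MYC, had a log2 change of 0.083 and did not pass the test. MXI1, a repressor that competes for MAX, fell to 31.7 and 30.9 CPM in knockdown libraries, against 43.3 and 44.0 CPM in control libraries (log2 change -0.47, limma adjusted p = 1.24e-05). USP28, which stabilises MYC protein, had a log2 change of 0.30 and SKP2, which ubiquitinates it, of 0.28. The others that rose were FBXW7 (0.22), which targets MYC for degradation, and the MAX partner MGA (0.21). The others that fell were the MAX partner MXD3 (-0.55) and the MAX-like protein MLX (-0.25). Among 26 genes widely used as MYC targets, 10 fell and 1 rose, beside 16.8% and 16.6% of all genes, and the median log2 change was -0.056. DESeq2 called 5 lower and 0 higher, beside 9.18% and 7.72% of its 12866 genes. Limma without the trend called 2 lower and 0 higher, beside 7.44% and 6.71% of all genes. LDHA, lactate dehydrogenase A, had a log2 change of -0.23 (-0.082 with quantile scaling), the nucleolar protein MYBBP1A of -0.32 and the ribosome factor NOP16 of -0.31. The member that rose was PPAT, the first enzyme of purine synthesis, with a log2 change of 0.24. NCL, NOP56, FBL and ODC1 were among the 15 that did not pass.

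**Figure D3:**
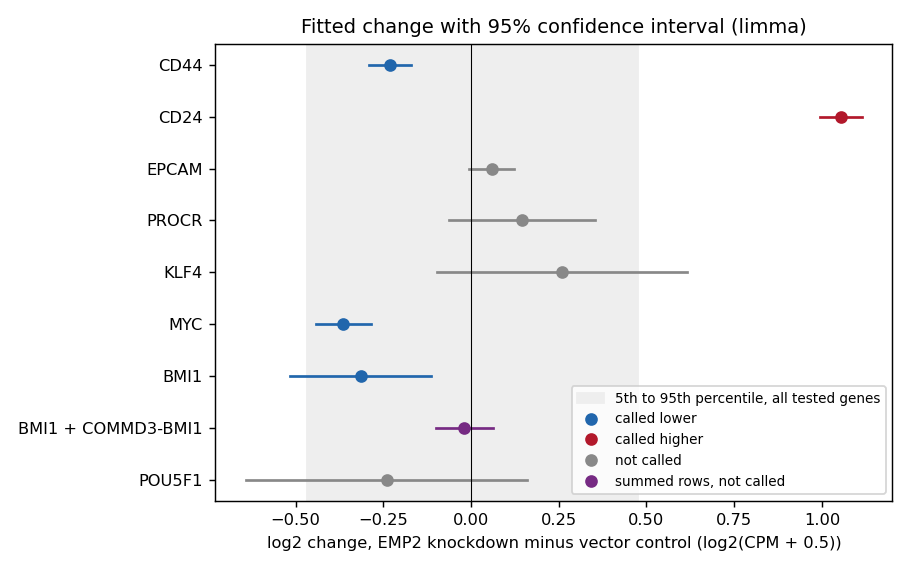
Log2 change, EMP2 knockdown minus vector control (horizontal axis), with its 95% confidence interval for the 8 tested markers and for the sum of the BMI1 and COMMD3-BMI1 rows; the shaded band spans the 5th to 95th percentile of all 13661 tested genes, -0.47 to 0.48. CD24 at 1.05 lies outside the band, the other fitted changes lie inside it, and the summed BMI1 rows sit at -0.019.

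BMI1 lies on the plus strand at chr10:22321211-22331484, and the annotation holds a readthrough gene, COMMD3-BMI1, that runs from the neighbouring gene COMMD3 into it. The BMI1 row alone stood at 53.6 and 71.2 CPM in knockdown libraries, against 70.7 and 83.8 CPM in control libraries. The groups overlapped, and libraries of a group differed widely. The log2 change was -0.31 (SE 0.095, limma adjusted p = 0.0171). The COMMD3-BMI1 row went the other way, at 62.3 and 43.7 CPM in knockdown libraries, against 48.6 and 31.0 CPM in control libraries (log2 change 0.42, limma adjusted p = 0.0439). Its groups overlapped too, and it was not called by edgeR (adjusted p = 0.0727), DESeq2 (adjusted p = 0.612), limma without the trend (adjusted p = 0.385) or limma with quantile scaling (adjusted p = 0.139). In each group the library with the lower BMI1 value had the higher readthrough value.

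Summed, the rows gave 115.9 and 114.9 CPM in knockdown libraries, against 119.3 and 114.7 CPM in control libraries. The sums overlapped and were nearly level, while the share assigned to the BMI1 row was 46.2% and 62.0% in knockdown libraries and 59.3% and 73.0% in control libraries. The mean sums were 115.4 ± 0.727 CPM in knockdown and 117.0 ± 3.20 CPM in control libraries (SD, n = 2 each). Refitted as 1 locus, a choice made after the data were seen, the rows differed by -0.019 on the log2 scale, with an SE of 0.039 and a 95% interval of -0.10 to 0.063 (limma adjusted p = 0.748). It was -0.026 with edgeR (adjusted p = 0.628) and -0.023 with DESeq2 (adjusted p = 0.897). The sum can also hold reads from the COMMD3 exons of the readthrough, so it does not measure BMI1 mRNA alone. For the BMI1 row alone DESeq2 gave no call (adjusted p = 0.445), and neither did limma without the abundance trend (adjusted p = 0.293), without a filter on low genes (adjusted p = 0.113) or with quantile scaling (adjusted p = 0.0754). The call was also lost without knockdown replicate 1 (log2 change -0.11, adjusted p = 0.208) and without control replicate 2 (log2 change -0.19, adjusted p = 0.103). With the replicate number as a block, a pairing that the labels do not establish, the BMI1 row had an adjusted p = 0.000835.

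The overlap of the rows can be seen in the sequence. Of the 50-base stretches, the read length here, in COMMD3-BMI1 transcripts, 91.1% also occur in another gene: 46.6% in BMI1 and 44.5% in COMMD3. Of those in BMI1 transcripts 21.3% occur in COMMD3-BMI1. The 50 bases from the BMI1 start codon, at chr10:22326450-22326499, occur in both the main BMI1 transcript and the readthrough transcript, so a read there cannot be told apart. The junction between the last COMMD3 exon used, which ends at base 22319018, and the BMI1 exon that starts at base 22326431 occurs in the readthrough alone of these transcripts. Both are from GENCODE release 29 (GRCh38), plus strand, with the start codon in capitals in the first and the 25 COMMD3 bases in capitals in the second.
BMI1 coding start: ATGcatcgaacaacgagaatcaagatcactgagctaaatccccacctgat
COMMD3-BMI1 junction: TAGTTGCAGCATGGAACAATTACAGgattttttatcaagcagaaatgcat
How the authors' counting divided reads that lie in both genes was not given in the sources used here. COMMD3, which the readthrough shares too, stood at 20.3 and 22.9 CPM in knockdown libraries, against 24.2 and 25.5 CPM in control libraries (log2 change -0.20, limma adjusted p = 0.0748).

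Of 21 other Polycomb genes tested, 3 rose and 3 fell, which is 28.6% beside 33.4% of all genes, with a median log2 change of 0.018. DESeq2 called 0 higher and 1 lower, and limma without the trend 1 and 2. The list holds the core of complex 2 (EZH2, EED and SUZ12) as well. SCMH1, a Sex comb protein of complex 1, fell to 28.4 and 28.1 CPM in knockdown libraries, against 40.0 and 39.4 CPM in control libraries (log2 change -0.48, limma adjusted p = 1.62e-05). The chromodomain protein CBX7 had a log2 change of -0.58 and the adaptor RYBP of -0.25. The 3 that rose were the chromodomain proteins CBX6 (0.36) and CBX2 (0.26) and PCGF3 (0.12), a relative of BMI1; the call of PCGF3 was lost with edgeR (adjusted p = 0.063). The catalytic partners RING1 and RNF2 did not pass the test, with log2 changes of -0.035 and 0.10. The locus that BMI1 is best known to silence, CDKN2A and CDKN2B, was at 0 reads in every library, which allows up to 3 reads or 0.208 to 0.227 CPM in a library. The reason for the 0 reads, silencing or another, was not tested.

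KLF4, a zinc finger factor of epithelial differentiation and reprogramming at chr9:107484852-107490482, was expressed at a low level. It stood at 4.81 and 5.02 CPM in knockdown libraries, against 4.36 and 3.71 CPM in control libraries, which is 67 and 67 reads against 63 and 49 reads. The groups did not overlap, but the log2 change of 0.26 had a 95% confidence interval from -0.098 to 0.62 (limma adjusted p = 0.263). Without control replicate 2 the log2 change was 0.16. Among the other KLF factors 3 of 11 tested rose and 2 fell, beside 16.6% and 16.8% of all genes, and DESeq2 called 0 higher and 2 lower, limma without the trend 1 and 1. KLF13 fell to 111.7 and 106.0 CPM in knockdown libraries, against 144.3 and 147.7 CPM in control libraries (log2 change -0.42, limma adjusted p = 3.07e-07). KLF5, a factor of proliferating epithelium, had a log2 change of -0.23. The 3 that rose were KLF7 (0.28), KLF10 (0.22) and KLF6 (0.18), the last not called with quantile scaling (limma adjusted p = 0.0517).

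POU5F1, the pluripotency factor OCT4, lies at chr6:31164337-31180731 and stood at 3.01 and 2.77 CPM in knockdown libraries, against 3.53 and 3.48 CPM in control libraries. These values rest on 42 and 37 reads against 51 and 46 reads. The groups did not overlap, and the log2 change of -0.24 had a 95% confidence interval from -0.64 to 0.16 (limma adjusted p = 0.361). The row is uncertain as a measure of OCT4: 37.4% of its 50-base stretches occur in another gene, among them 16.4% in POU5F1B, 14.2% in POU5F1P3 and 10.5% in POU5F1P4. Those copies had at most 0.151 CPM in any library. A further 5.14% occur in TCF19, which overlaps POU5F1 on the opposite strand and stood at 71.9 and 64.9 CPM in knockdown and at 73.9 and 74.5 CPM in control libraries. Without a stated strand setting, TCF19 reads in the shared exon cannot be told apart.

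SOX2, the partner of OCT4 in pluripotent cells, lies at chr3:181711924-181714436. It had 0 and 1 reads in knockdown libraries, against 0 and 1 reads in control libraries. All are under the 3 reads that a count of 0 allows, so SOX2 was not detectable at this depth in either group. Of 19 other pluripotency and reprogramming factors listed, 7 were tested: ZFP42, TFCP2L1, KLF2, KLF5, SOX9, SOX4 and POU2F1. NANOG was not, at 11 and 9 reads in knockdown libraries, against 9 and 12 reads in control libraries. LIN28A, LIN28B, SALL4 and ESRRB were not tested either, so the counts below do not measure the core pluripotency genes. Of the 7, 0 rose and 4 fell, beside 16.6% and 16.8% of all genes, with a median log2 change of -0.17. Limma without the trend called 0 lower and DESeq2 3; by unadjusted p under 0.05 limma also placed POU2F1 higher, and edgeR and DESeq2 called 0 higher. SOX9 fell to 130.7 and 126.0 CPM in knockdown libraries, against 162.1 and 152.4 CPM in control libraries (log2 change -0.29, limma adjusted p = 2.04e-05). KLF5, which is in the KLF list too, TFCP2L1 (-0.16) and SOX4 (-0.17) were the others.

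**Figure D4:**
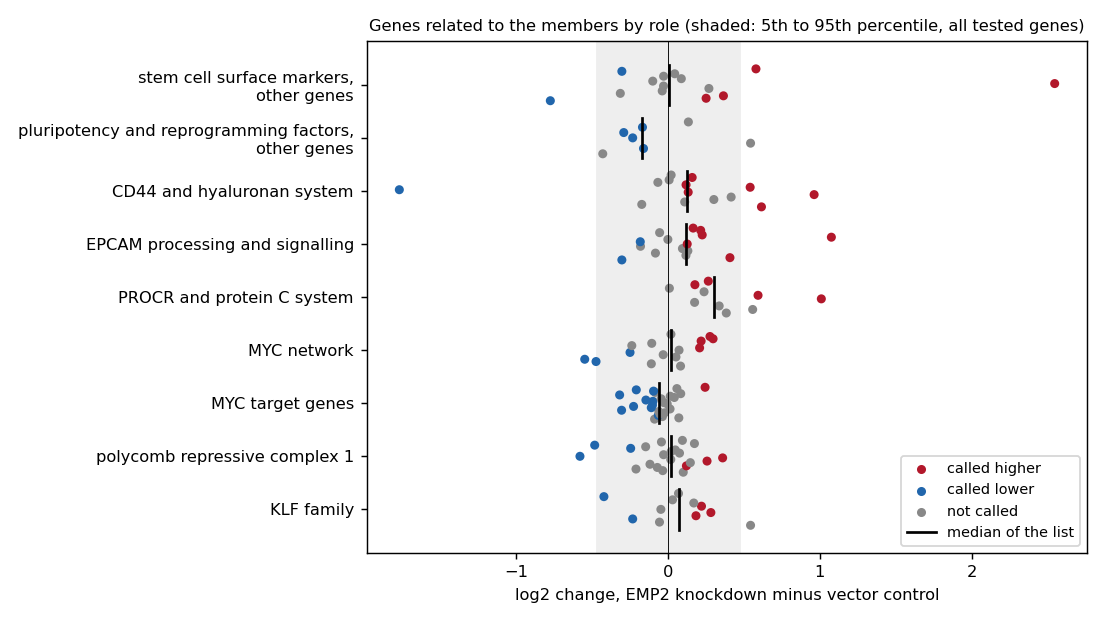
Log2 change, EMP2 knockdown minus vector control (horizontal axis), of each tested gene in 9 lists related to the markers by role; points are genes coloured by call, black lines are list medians and the band spans the 5th to 95th percentile of all tested genes. The medians run from -0.17 for the other pluripotency and reprogramming factors to 0.30 for the list around PROCR and protein C, and all lie inside the band.

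Brought to a common length, as CPM per kilobase of the longest annotated transcript, the markers kept much the same order of levels in both groups except at the top. In knockdown libraries CD24 was highest at 227.4 and 232.8 CPM per kilobase, followed by EPCAM at 144.9 and 142.7, CD44 at 63.7 and 65.7, and MYC at 45.2 and 45.0. In control libraries EPCAM was highest at 137.0 and 139.2 CPM per kilobase, followed by CD24 at 108.9 and 112.5, CD44 at 74.6 and 77.4, and MYC at 57.9 and 58.3. These neighbours were further apart than the libraries of a group. Below them came BMI1, as its own row, at 15.6 and 20.8 in knockdown and 20.6 and 24.4 CPM per kilobase in control libraries, and PROCR at 11.8 and 13.6 in knockdown and 11.6 and 11.2 in control libraries. KLF4 was at 1.71 and 1.78 CPM per kilobase and POU5F1 at 1.32 and 1.22 in knockdown libraries. In control libraries this pair could not be ordered, with KLF4 at 1.55 and 1.32 and POU5F1 at 1.55 and 1.53 CPM per kilobase. PROM1 and SOX2 stood last, at no more than 0.157 and 0.0301 CPM per kilobase. These levels assume that each gene makes its longest transcript, which was not measured.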

How the data were processed

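RNA of 4 libraries was measured, 2 per group; per the labels' protocols, ribosomal RNA was removed from 1 µg of RNA, which was sequenced as single reads of 50 bases. GRCh38 was the build, and STAR, bcl2fastq 2.17 and DESeq2 the tools, per the submitters' processing notes. The annotation, the program that counted reads and its strand setting were not given in the sources used here. The deposited values are TMM-normalized CPM, named so by the authors. Library columns were matched to samples by name. Whole reads were recovered from the CPM steps: 100% of the values above 0 were whole to within 0.1 read in each library. Replicates differed by 1.62 (knockdown) and 1.64 (control) in chi-square per gene, above the 1 of counting noise. All libraries were counted, but this does not show that they came from separate cultures. The edgeR estimate of variation between replicates beyond counting noise was 2.15%.

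Genes that reached 1 CPM in 2 or more libraries were fitted as log2(CPM + 0.5) by limma 3.58.1 (R 4.3.3), with group as the single term and an abundance trend, two-sided. Alternatives were edgeR 4.0.16 (2135 genes higher and 2371 lower) and DESeq2 1.42.0 on recovered reads, limma without trend, pseudocounts of 0.1 and 1, no filter, a mean of at least 5 CPM, quantile scaling, leaving out each library and a replicate block; the sum of the BMI1 rows was added after the data were seen. The limma, edgeR and DESeq2 fits were tested on simulated counts. Annotation and 50-base stretches came from GENCODE release 29, promoters from RefSeq. The markers and lists were chosen with earlier results of these data known. Named in each list are up to 3 called genes by smallest adjusted p, and any whose count was 5 or fewer; other list genes were chosen after their values were seen, and some list genes are not reported here. Intervals for counts of 0 cover counting error only.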

Additional observations from a re-analysis of the deposited data

How the results depend on the processing

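Of the tested markers, CD24 and MYC kept their direction and their call under every alternative run, and EPCAM, PROCR, KLF4 and POU5F1 stayed without a call wherever they were tested; KLF4 and POU5F1 drop out at a mean of at least 5 CPM. The number of markers called lower was 3, and 1 with limma without the abundance trend, where CD44 and BMI1 were lost; leaving out a library gave 2 to 3. With edgeR it was 3, with DESeq2 2, without a filter on low genes 2 and with quantile scaling 2. With the BMI1 rows summed it was 2 by limma, edgeR and DESeq2. Over all genes, 2269 were called higher and 2294 lower, against 993 and 1181 with DESeq2 (994 and 1182 with the BMI1 rows summed) and 916 and 1016 with limma without the trend; leaving out a library gave 1823 to 2029 higher and 1842 to 2059 lower. The cause was not tested. Of the genes named from the lists, the calls lost with limma without the trend were those of ITGA2, ESRP1, RDX, AXL, APH1A, MGA, MLX, FBXW7, PCGF3, CBX2, KLF6, KLF10, VCAN, TYRO3, LDHA, PPAT, RYBP, KLF5, SOX9, SOX4 and TFCP2L1. Those lost with DESeq2 were ESRP1, AXL, MGA, FBXW7, MXD3, PCGF3, CBX2, CBX6, KLF6, KLF10, TYRO3, SKP2, NOP16, PPAT, CBX7, RYBP, KLF7 and SOX4. The ratio of CD44 to CD24 in knockdown over control ran from 0.408 to 0.411 when a library was left out.

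Libraries with the same replicate number did not deviate together as a whole (Pearson's r = -0.003 across 13661 genes). Counting noise enters both differences behind this correlation, so it cannot exclude a pairing. In the BMI1 and COMMD3-BMI1 rows, replicate 2 differed from replicate 1 in the same direction in both groups. With the replicate block 1 marker was higher and 3 lower, and 2162 genes were higher and 2180 lower. The reads behind KLF4, POU5F1, PROM1 and SOX2 limit what could be detected for them.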
